A study of Mus musculus with 9 samples.

Results

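Of 18570 genomic loci at which the glucocorticoid receptor (GR) was called in mouse granulosa cells, 5012 were called in all 4 GR libraries, and 248 of these had a lower relative enrichment 6 h after an ovulatory hormone dose than before it. These 248 weakened loci, 4.95% of the shared loci, were chosen on the measured enrichment itself. Peaks overlapping by 1 bp were merged into loci, the highest fold enrichment of each library in a locus was divided by that library's median over the shared loci, and M was the mean log2 value at 6 h minus that at 0 h. A locus was a member if M was −0.5 or less, a ratio of 0.707 or less. The difference in enrichment is therefore a description of the choice and carries no test. Of the other shared loci, 4459 were stable and 305 were strengthened, with M of 0.5 or more.

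Both groups were wild-type CBA x C57BL/6 F1 mice aged 21 days, primed with 5 IU of eCG, or equine chorionic gonadotropin, a hormone that drives follicle growth through the receptor of follicle-stimulating hormone (FSH). The 6 h mice received 5 IU of human chorionic gonadotropin (hCG), a substitute for the surge of luteinising hormone (LH), at 44 h after eCG and were killed 6 h later. The 0 h mice were killed 44 h after eCG without hCG. Chromatin immunoprecipitation and sequencing (ChIP-seq) with the GR antibody sc-8992 gave 2 libraries at each time. A single library at 0 h, made with antibody 39133, mapped histone H3 acetylated at lysine 27 (H3K27ac), which marks promoters and enhancers in use. GR was not mapped at the later time without hCG, so hCG, the injection and the extra hours cannot be told apart. In bulk chromatin, fewer cells with GR at a locus and less GR per cell cannot be told apart either.

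GR is a nuclear receptor that enters the nucleus when it binds cortisol or corticosterone. It binds paired inverted half-sites on DNA directly, and it is also recovered at promoters and enhancers through other factors. In the ovarian follicle, granulosa cells surround the oocyte and make oestradiol and inhibin under FSH, and after the LH surge they turn towards progesterone synthesis.

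Of the weakened loci, 157 covered at least 150 bases of a promoter window (250 bases before to 50 after a RefSeq transcript start, build GRCm38.p6), with 203 distinct windows. The windows below belong to members that the following results turn on. Inha, Nppc, Gja1 and Fam13a are genes of the granulosa response to FSH. Tomm20 had one of the 12 lowest values of M, and Ppp2r2d and Mif had the lowest M among members with a full cAMP response element. Capitals mark matches, on either strand, to any of 15 short motifs searched. The positions are chr1:75507359-75507658 on the plus strand for Inha, chr1:86670524-86670823 on the minus strand for Nppc and chr10:56377050-56377349 on the plus strand for Gja1. They are chr6:59024453-59024752 on the minus strand for Fam13a, chr8:126945872-126946171 on the minus strand for Tomm20, chr7:138846109-138846408 on the plus strand for Ppp2r2d and chr10:75860228-75860527 on the minus strand for Mif. Each is written 5′ to 3′ on its gene's strand.
Inha: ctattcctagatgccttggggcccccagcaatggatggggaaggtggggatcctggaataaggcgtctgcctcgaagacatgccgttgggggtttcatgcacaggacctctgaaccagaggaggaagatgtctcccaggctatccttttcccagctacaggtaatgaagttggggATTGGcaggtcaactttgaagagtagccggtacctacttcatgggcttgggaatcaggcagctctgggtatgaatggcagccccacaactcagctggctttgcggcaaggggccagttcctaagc
Nppc: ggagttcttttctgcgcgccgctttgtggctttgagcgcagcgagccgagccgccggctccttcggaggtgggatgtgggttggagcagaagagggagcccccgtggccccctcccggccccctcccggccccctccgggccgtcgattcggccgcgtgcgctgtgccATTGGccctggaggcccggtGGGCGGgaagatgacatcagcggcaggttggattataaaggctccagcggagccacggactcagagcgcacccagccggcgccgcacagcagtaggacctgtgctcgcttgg
Gja1: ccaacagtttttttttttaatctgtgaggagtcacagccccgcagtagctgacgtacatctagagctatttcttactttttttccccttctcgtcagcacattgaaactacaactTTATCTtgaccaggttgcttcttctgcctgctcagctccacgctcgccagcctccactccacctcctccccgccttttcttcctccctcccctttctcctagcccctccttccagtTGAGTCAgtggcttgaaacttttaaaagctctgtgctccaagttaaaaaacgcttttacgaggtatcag
Fam13a: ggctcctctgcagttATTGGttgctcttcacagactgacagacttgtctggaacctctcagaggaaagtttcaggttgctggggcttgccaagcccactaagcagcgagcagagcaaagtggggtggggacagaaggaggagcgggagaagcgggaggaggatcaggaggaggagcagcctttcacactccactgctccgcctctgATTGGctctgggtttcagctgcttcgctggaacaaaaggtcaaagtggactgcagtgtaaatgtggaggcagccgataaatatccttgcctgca
Tomm20: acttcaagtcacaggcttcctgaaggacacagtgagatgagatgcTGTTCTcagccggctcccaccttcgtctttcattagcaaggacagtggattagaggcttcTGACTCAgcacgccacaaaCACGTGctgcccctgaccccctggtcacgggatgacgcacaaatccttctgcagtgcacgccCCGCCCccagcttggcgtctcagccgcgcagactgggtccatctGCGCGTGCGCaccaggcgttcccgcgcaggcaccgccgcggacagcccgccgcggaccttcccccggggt
Ppp2r2d: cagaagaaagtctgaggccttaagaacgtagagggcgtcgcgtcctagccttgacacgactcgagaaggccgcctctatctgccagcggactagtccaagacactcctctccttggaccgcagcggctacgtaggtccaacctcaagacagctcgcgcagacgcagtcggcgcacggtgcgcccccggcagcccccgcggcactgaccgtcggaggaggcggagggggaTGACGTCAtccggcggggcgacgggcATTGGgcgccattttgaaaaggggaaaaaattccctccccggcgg
Mif: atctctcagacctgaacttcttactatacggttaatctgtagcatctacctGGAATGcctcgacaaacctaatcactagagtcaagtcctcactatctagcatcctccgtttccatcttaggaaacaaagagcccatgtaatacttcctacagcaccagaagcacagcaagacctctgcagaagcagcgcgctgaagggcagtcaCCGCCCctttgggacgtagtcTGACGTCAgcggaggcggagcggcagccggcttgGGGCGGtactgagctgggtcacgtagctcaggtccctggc
The capitals in Inha are an NF-Y box (CCAAT on the other strand), 75 bases before the start. The locus itself covered only the first 133 bases of this window. The box thus lies outside the locus, and the Inha window is not among the 203. Nppc holds an NF-Y box 82 bases and an SP/KLF site (GGGCGG) 62 bases before its start. Gja1 holds a GATA site (AGATAA) and an AP-1 site (TGANTCA), and Fam13a holds NF-Y boxes 235 and 44 bases before the start. The Fam13a box at 235 bases lies outside the locus. Tomm20 holds a GR half-site (AGAACA), an AP-1 site, an E-box (CACGTG), an SP/KLF site and an NRF1 site (GCGCNTGCGC). The full cAMP response element (TGACGTCA) lies 21 bases before the start of Ppp2r2d and 24 bases before that of Mif. The TEAD site (GGAATG) marked in Mif lies outside its locus. A match is a string of letters in the window and does not show a bound factor.

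The loss at the members was moderate in size. The median M was −0.60, a median ratio of 0.662, and ratios ran between 0.353 and 0.707. Only 8 members had M of −1 or less, 50 lay above −1 and at −0.7 or less, and 190 lay above −0.7. Before scaling, the median fold enrichment of the members, as the authors' peak lists give it, was 8.22 and 5.59 in the 6 h libraries, against 11.1 and 11.4 in the 0 h libraries. At the stable loci it was 9.61 and 6.73 at 6 h, against 8.69 and 8.75 at 0 h. The second 6 h library was the lowest at both classes, and division by the library medians (9.73 and 6.88 at 6 h, 8.69 and 8.81 at 0 h) evened this out. On the scaled axis, 183 of the 248 members lay below the library median at 6 h and 208 lay above it at 0 h.

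Every member was a called peak in both 6 h libraries, as the rule requires. The weakest −log10 p-value of a member, as deposited by the authors, was 9.79 and 9.31 in the 6 h libraries, just over the limit of about 9 in these lists. In the 0 h libraries it was 15.5 and 16.4.

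The spread between libraries sets how far single loci can be read. Over the shared loci, the log2 difference between replicates had an SD of 0.363 at 6 h and 0.346 at 0 h (n = 2 each), which gives M an SD of 0.251. The observed SD of M was 0.355, and its median was −0.04. The threshold thus lay 1.84 of these replicate SDs below the median, and members near it were within the range that replicate spread alone can reach. How many of the 248 this covers was not tested, and 190 of them had M above −0.7. Both 6 h values lay below both 0 h values at 237 of the 248 members, against 23.0% of all shared loci, a count that the rule largely fixes. At the other 11, the groups overlapped. The member at the mitochondrial peptidase gene Mipep, for example, had fold enrichments of 14.5 and 4.84 at 6 h, against 17.9 and 11.97 at 0 h. With 2 libraries a group, an exact permutation test cannot reach p of 0.05.

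**Figure D1:**
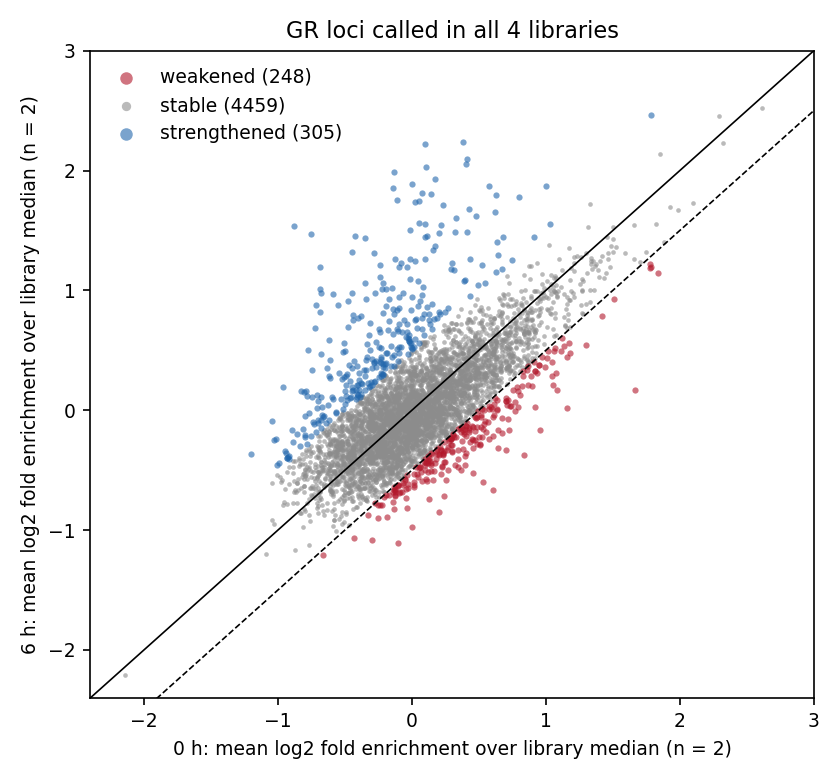
Mean log2 fold enrichment over the library median at 6 h (vertical axis) and 0 h (horizontal axis) at the 5012 shared loci, n = 2 libraries each; the solid line marks equal values and the dashed line M of −0.5. The 248 weakened loci, which the rule places below the dashed line, lie close to it, with 8 at M of −1 or less, and the locus near Pdp1 stands lowest at M of −1.50.

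At the threshold itself, the 3 members just inside lay at the lactate dehydrogenase gene Ldhb (M of −0.50), at Tcf4 (−0.502) and at the transketolase gene Tkt (−0.502). The 3 loci just outside lay near Dcps (−0.4997), at Dtwd2 (−0.4996) and at the shared end of Nudt21 and Ogfod1 (−0.497). The 6 loci spanned a far smaller range of M than the spread between replicates.

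The 12 lowest values of M included those at Inha, Nppc and Cyp19a1, genes that FSH induces in granulosa cells, and 7 loci away from gene ends. The lowest M belonged to a locus outside genes on chromosome 4 (chr4:11979864-11980474, mm10), 13414 bp from Pdp1, which encodes a phosphatase that activates pyruvate dehydrogenase. Its fold enrichments were 12.6 and 6.68 at 6 h, against 24.5 and 31.5 at 0 h (M of −1.50). This locus was also the fifth strongest member at 0 h, and the groups stood far apart.

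The second lowest was the promoter region of Inha, the inhibin alpha subunit, and its divergent neighbour Obsl1 (chr1:75505938-75507491). Its fold enrichments were 4.59 and 5.79 at 6 h, against 10.1 and 17.7 at 0 h (M of −1.27). All the 6 h values lay below the 0 h values, and replicates differed at both times. Over 9 alternatives of scaling, measure and libraries, tried at the 12 lowest loci and at Fam13a, Gja1 and Bmpr1b, M at Inha ranged between −1.69 and −0.86. At the promoter of Nppc (chr1:86670112-86670878), which encodes the C-type natriuretic peptide that holds the oocyte in meiotic arrest, fold enrichments were 11.1 and 6.19 at 6 h, against 20.3 and 18.7 at 0 h (M of −1.13). Inside Cyp19a1 (chr9:54204361-54204863), the gene of aromatase, which makes oestradiol, they were 8.13 and 6.56 at 6 h, against 18.9 and 15.3 at 0 h (M of −1.12). At each of these genes, both 6 h libraries lay below both 0 h libraries. The first 6 h library at Nppc was still above its library median of 9.73.

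Of the remaining 8 of the 12 lowest, a locus inside Nhej1 (DNA end joining) had 8.08 and 4.92 at 6 h, against 13.7 and 17.7 at 0 h (M of −1.21). A locus 6031 bp from Rcsd1 had 5.45 and 5.34 at 6 h, against 12.9 and 12.5 at 0 h (M of −1.13). The Rpl21 end, a ribosomal protein gene, had 4.25 and 4.82 at 6 h, against 9.90 and 10.2 at 0 h (M of −1.05). These 3 loci showed no overlap between the times. A locus inside Fdft1, the squalene synthase gene, had 7.60 and 5.56 at 6 h, against 15.0 and 13.6 at 0 h (M of −1.04). It lay 33713 bp from Gata4, a transcription factor gene of granulosa cells, in an H3K27ac peak of 5768 bp. The other 4 were at Tomm20 (M of −0.998), near Max (−0.98), inside the potassium-chloride cotransporter gene Slc12a7 (−0.98) and near Zfp41 (−0.96). Max encodes the partner of MYC proteins. All 12 kept M at −0.5 or less in 9 of 9 alternatives. The alternatives reuse the libraries by which the 12 were chosen as lowest, so this was largely fixed by the choice.

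**Figure D2:**
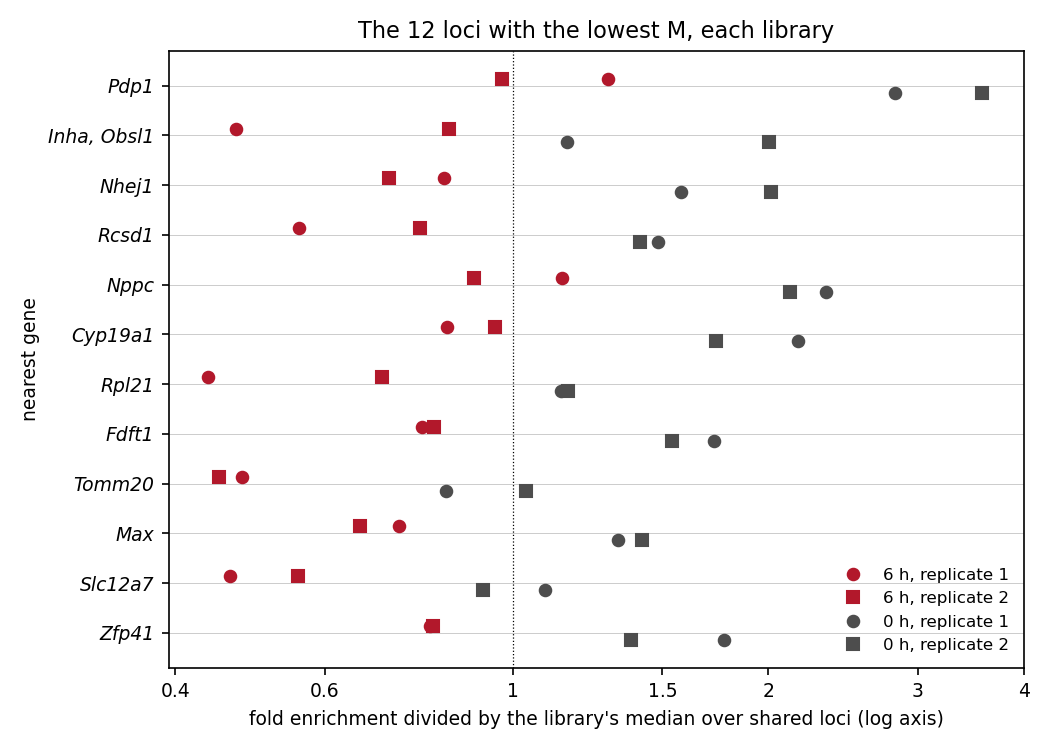
Fold enrichment divided by the library median over shared loci (log axis) at the 12 loci with the lowest M, named by the nearest gene; red points are the 6 h libraries and grey points the 0 h libraries, circles for replicate 1 and squares for replicate 2. No red point reaches a grey one of the same locus, and Pdp1 shows the widest gap, at M of −1.50.

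Of the 5 members with the highest mean scaled 0 h value, the Pdp1 locus had the lowest M of all members, and the other 4 had M near the member median of −0.60. They lay at Prpsap1 (M of −0.68), at the start of Rpl18 and Sphk2, at the shared end of Smtnl1 and Timm10 (M of −0.56), and at Ercc1. At Rpl18 and Sphk2, a ribosomal protein gene and a sphingosine kinase gene, fold enrichments were 24.3 and 14.5 at 6 h, against 29.7 and 30.7 at 0 h (M of −0.59). At Ercc1, a DNA repair gene, they were 18.6 and 18.7 at 6 h, against 29.3 and 30.7 at 0 h (M of −0.59). Both sites lay above the library medians in both 6 h libraries.

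The list of the FSH response was the one with the most genes near a member. Of 24 genes of the preovulatory FSH response, 6 had a weakened locus within 50 kb, namely Inha, Nppc, Cyp19a1, Fam13a, Gja1 and Bmpr1b, and all 6 loci overlapped their gene. Among all 21631 protein-coding genes 3.77% had one. Of the 17 FSH genes with any shared locus within 50 kb these were 6, against 8.19% of the 9950 protein-coding genes with one. The list was drawn up with results of these data known, so the count is no independent evidence. The median M of the 27 shared loci near the list was −0.18, against −0.04 over all shared loci, and 1 of the 27, inside Igf1r, was strengthened (M of 0.56). Granulosa transcription factors (−0.20), granulosa markers (−0.18) and endothelial markers (−0.33) had medians as low or lower, and the other lists had higher ones. M is also the value that chose the members.

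At the promoter of Fam13a (chr6:59024242-59024727), fold enrichments were 5.94 and 6.40 at 6 h, against 9.99 and 12.3 at 0 h (M of −0.75). At the promoter of Gja1, the gap junction gene connexin 43 (chr10:56377157-56377749), they were 6.54 and 5.55 at 6 h, against 9.76 and 9.53 at 0 h (M of −0.58). A second shared locus of Gja1 (chr10:56378191-56379248) was stable, with 6.51 and 6.89 at 6 h, against 6.84 and 5.42 at 0 h (M of 0.23). Of the Gja1 loci, the one over the start was low at 6 h and its neighbour was not. Inside Bmpr1b, a receptor of bone morphogenetic proteins, fold enrichments were 9.80 and 13.99 at 6 h, against 18.1 and 18.7 at 0 h (M of −0.55). Without the first 6 h library M was −0.45 at Fam13a, −0.45 at Gja1 and −0.05 at Bmpr1b, so that none of the 3 met the threshold. The locus inside Fshr, the FSH receptor gene, had 23.96 and 23.8 at 6 h, against 27.3 and 27.8 at 0 h, and was stable (M of −0.11).

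Transcription factor genes of granulosa cells had 2 of 20 with a member, Gata4, through the Fdft1 locus, and Nr5a2. Nr5a2 encodes the nuclear receptor LRH-1, which is needed for ovulation and luteinisation. Its member (chr1:136949033-136949972) had 11.7 and 4.54 at 6 h, against 13.0 and 16.2 at 0 h (M of −0.89). The 6 h libraries differed widely there, and the first was close to the lower 0 h library. Genes of AMH, BMP, activin and TGF-beta signalling had 3 of 25, namely Bmpr1b, Acvr1b and Id1. Hippo and Notch signalling had 3 of 24, and the member at the promoter of Yap1, a Hippo effector, had 10.1 and 6.56 at 6 h, against 15.4 and 9.92 at 0 h (M of −0.50). WNT signalling had 0 of 21. Over all protein-coding genes the share was 3.77%, and 8.19% of those with a shared locus within 50 kb. Counts of 0 to 3 in lists of 20 to 25 genes are too small to set a list apart from these shares.

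Lists of the response to hCG and to glucocorticoids had 1 gene each with a member, a share near that over all protein-coding genes. Over all 5012 shared loci, 305 were strengthened. Of 25 genes of the ovulatory LH response only Nr4a1 had a member, 29272 bp away at the end of Grasp, and 10 of the 31 shared loci near the list were strengthened (median M of 0.11). Of 24 genes that respond to glucocorticoids only Angptl4 had one, 42658 bp away at Ndufa7 and Rps28, and 14 of 48 shared loci were strengthened (median M of 0.28). The early transcription factor genes had 3 of 20. Their members lay at other genes, 34554 bp from Fosb at Ercc1, 18134 bp from Ier3 at Mdc1 and, for Nr4a1, at Grasp. The locus counted for the clock gene Dbp was that of Rpl18 and Sphk2. Nearness within 50 kb thus often stood for a promoter of another gene.

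The other lists had 0 to 3 genes with a member. Over all protein-coding genes 3.77% had one within 50 kb, and 8.19% of those with a shared locus there. Luteinisation and steroid synthesis had 1 of 20 (Nr5a2), insulin and IGF signalling 1 of 22 (Akt2), cAMP signalling 2 of 24 (Crem and Rapgef3) and glucocorticoid handling 1 of 13 (Ncor1). The circadian clock had 1 of 18 (Dbp), inflammation 1 of 20 (Socs3, which curbs cytokine signalling), matrix and vessels 1 of 21 (Itgb1) and the cell cycle 2 of 24 (Cdk4 and Bub1). Housekeeping had 3 of 15 (Hprt, Sdha and Tubb5). None of these 3 loci overlapped the housekeeping gene itself.

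The granulosa label was checked against marker genes by acetylation. H3K27ac peaks lay at the ends of 8 of 10 granulosa marker genes, 2 of 11 theca, 1 of 14 oocyte, 2 of 14 leukocyte and 1 of 13 endothelial marker genes. The share of all protein-coding genes with such a peak is not given here. A weakened locus lay near 3 of the 10 granulosa markers (Cyp19a1, Inha and Nr5a2) and 1 of the 11 theca markers (Ptch1), and near 0 of the oocyte, leukocyte and endothelial markers. Over all protein-coding genes it was 3.77%, and 8.19% of those with a shared locus within 50 kb. Such a shared locus lay near 8 granulosa, 5 theca, 4 oocyte, 6 leukocyte and 5 endothelial markers. These counts are too small to tell the cell types apart. The acetylation was measured at 0 h only, so the cell make-up at 6 h was not tested.

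**Figure D3:**
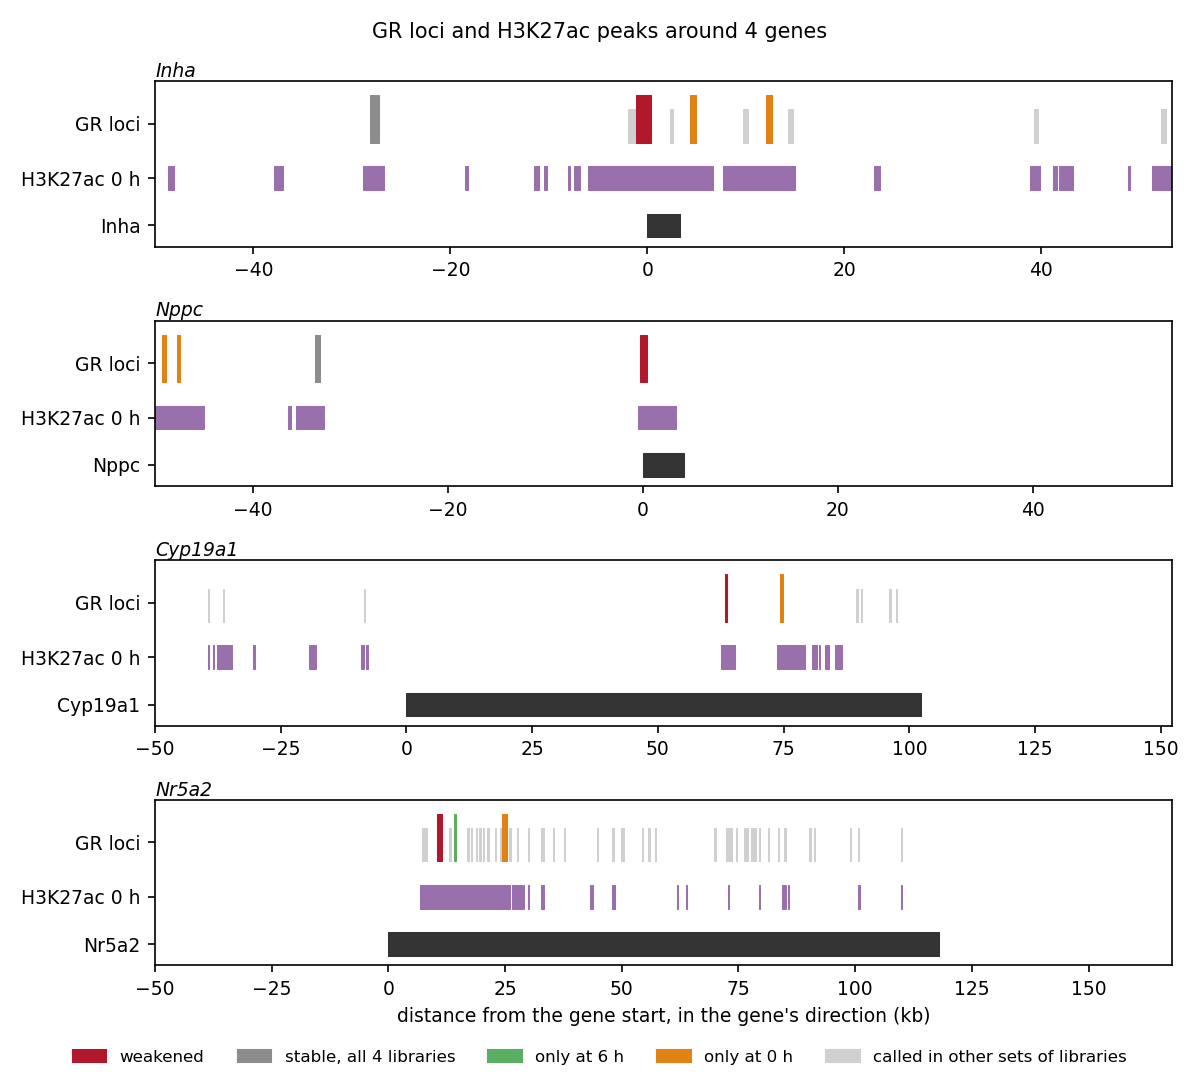
GR loci (upper track, coloured by class), H3K27ac peaks at 0 h (middle) and the gene (lower) around Inha, Nppc, Cyp19a1 and Nr5a2, against distance from the outermost gene start in kb. The weakened locus (red) sits at the start of Inha and Nppc and inside Cyp19a1 and Nr5a2, each time on an H3K27ac peak, and loci only at 0 h (orange) lie within 50 kb of all 4 genes.

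Around these genes, other GR sites were seen at 0 h only. Within 50 kb of Inha lay 2 loci that had a peak in each 0 h library and none at 6 h, at 4.29 to 4.90 kb and 12.1 to 12.7 kb from the gene start. Nppc also had 2, both upstream, whereas its 1 stable locus lay inside Dis3l2. Cyp19a1 had 1, at 74.3 to 74.8 kb from the outermost start, beyond the member at 63.3 to 63.8 kb. Nr5a2 had 1 locus only at 6 h, 1 called at 0 h alone, and a further 43 loci called in other sets of libraries. At these picked genes, weakened loci and loci called only at 0 h thus lay in the same regions. Most members had no such neighbour. A locus called only at 0 h lay within 50 kb of 13.3% of weakened, 7.29% of stable and 9.51% of strengthened loci.

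Most members lay near a gene end or a transcript start. A gene end, either edge of a protein-coding gene's span, lay within 1 kb of 70.97% of the weakened loci (176 of 248, 95% Wilson interval 65.0 to 76.3), against 79.8% of the stable loci (78.6 to 81.0), 34.1% of the strengthened loci (29.0 to 39.6) and 31.8% of loci only at 0 h (28.6 to 35.2). For a transcript start in the promoter table within 1 kb, the shares were 73.7% of weakened loci, 74.6% of stable, 30.1% of strengthened and 26.2% of loci only at 0 h, leaving out chromosome 18. The weakened share was below the stable one by gene ends, with intervals that do not overlap, and near it by transcript starts. Both were far above the strengthened and 0 h-only shares. Loci are not replicates, so these intervals describe counting error and no test was made.

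Away from gene ends were 72 members, 53 inside genes and 19 outside. Not all of the 72 were distal. Of the 179 members within 1 kb of a transcript start, 152 lay near a gene end. The others, such as those at Slc12a7 and Cnot8, covered or adjoined a start inside a gene's span. The 72 made up 6.14% of the 1172 shared loci away from gene ends (4.91 to 7.67), against 4.58% near gene ends (3.97 to 5.29). This does not compare distal sites with promoters. Strengthened loci made up 17.2% away from gene ends (15.1 to 19.4) and 2.71% near them (2.24 to 3.27). The intervals of the 2 weakened shares overlapped and those of the 2 strengthened shares did not. Of the 12 lowest members 7 were away from gene ends, and of the 50 lowest 16 were. By chromosome, members made up between 1.08% (chromosome 19) and 7.46% (chromosome 14) of the shared loci.

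**Figure D4:**
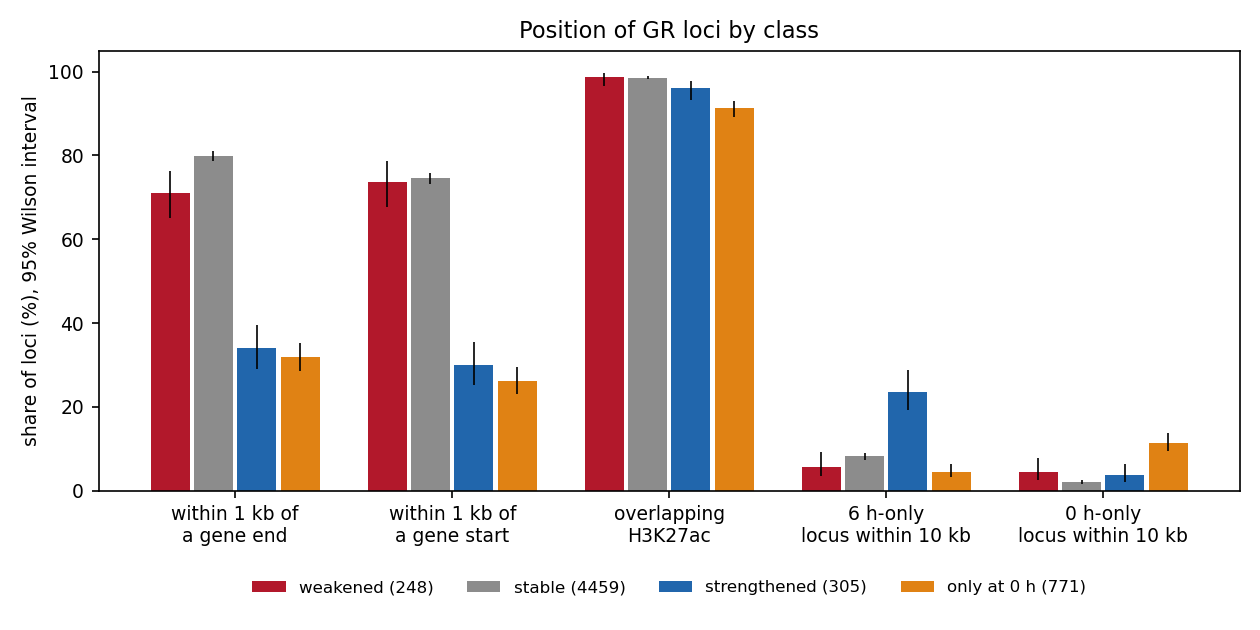
Share of loci (%, bars with 95% Wilson intervals) with each feature, for weakened, stable and strengthened shared loci and loci only at 0 h. Weakened and stable loci have the highest bars near gene ends (70.97% and 79.8%) and in H3K27ac peaks (98.8% and 98.6%), and strengthened loci have the highest share with a 6 h-only locus within 10 kb (23.6%).

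Nearly all members lay in chromatin that was acetylated before hCG. H3K27ac peaks at 0 h overlapped 98.8% of the weakened loci (245 of 248, 96.5 to 99.6), 98.6% of the stable, 96.1% of the strengthened and 91.3% of the loci only at 0 h. The 3 members outside any H3K27ac peak lay at Tlcd3a and Vps53, near Polr1a and inside the overlapping genes Gas7 and Glp2r. The overlapped peak had a median width of 1476 bp at weakened loci, 1487 bp at stable loci and 1758 bp at strengthened loci. It was 5 kb or wider at 12 members, among them those of Nr5a2 (19412 bp), Gja1 (13521 bp) and Inha (12723 bp).

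Few members had a locus called at only 1 of the times close by. A locus called only at 6 h lay within 10 kb of 5.65% of the weakened loci (14 loci, 3.39 to 9.25), against 8.16% of the stable and 23.6% of the strengthened loci. A locus called only at 0 h lay within 10 kb of 4.44% of the weakened (11 loci, 2.49 to 7.77), against 1.97% of the stable (1.60 to 2.43) and 3.61% of the strengthened loci. The 11 members with a 0 h-only neighbour included Inha, Slc12a7, Ddit4l, Phf13 and Gja1, and Phf13 and Gja1 had 2 such neighbours each.

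Summits moved little. The median distance between summits of different times was 61 bp at weakened loci and 57.5 bp at stable loci. Between replicates it was 53.5 bp at 6 h and 30 bp at 0 h at weakened loci, against 46 and 43 bp at stable loci. The shift between times thus hardly exceeded that between the 6 h replicates. The members' peaks had median widths of 575 and 376 bp at 6 h, against 564 and 530.5 bp at 0 h, so the second 6 h library was narrow and the first was not.

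Promoters under weakened loci were rich in CpG, as were those under all shared loci. The 203 windows lay in 157 loci. Windows of alternative or divergent starts can overlap, so the same site can be counted more than once. The intervals treat windows as separate and are too narrow to that extent. Over the 203 windows the median GC content was 64.3%, against 63.7% under stable loci, 64.7% under strengthened loci and 56.7% over all 21020 distinct promoters. The ratio of observed to expected CpG was 0.861 under weakened loci, against 0.858 under stable loci, 0.857 under strengthened loci and 0.574 over all promoters. The full GR response element (AGNACANNNTGTNCT) was in 0 of the 203 windows, which allows a share of up to 1.86% (Wilson interval), in 0 stable and 0 strengthened windows, and in 0.0571% of all promoters. The GR half-site was in 6.40% (3.78 to 10.7), against 10.3% of stable, 7.69% of strengthened and 16.3% of all promoters. That these letters are missing from a window says nothing of GR itself, and sequence away from promoters was not analysed here.

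The full cAMP response element was in 14 windows, or 6.90% (4.15 to 11.2), against 4.93% of stable (4.26 to 5.70), 0 of 91 strengthened and 2.26% of all promoters (2.07 to 2.47). Those with the lowest M belonged to Ppp2r2d, Mif, which encodes a cytokine that counters glucocorticoid action, and Atg5, an autophagy gene. The weakened and stable shares had overlapping intervals, and overlapping windows at the same locus, as at Ppp2r2d, were each counted. The ETS site (CCGGAA) was in 43.4% of the weakened windows (36.7 to 50.2), 36.2% of stable and 18.9% of all promoters. The NF-Y box was in 32.0% (26.0 to 38.7), against 40.4% of stable (38.7 to 42.0) and 38.5% of all, and the NRF1 site in 8.87% (5.68 to 13.6), against 14.2% of stable and 6.44% of all. The SP/KLF site was in 68.0% of weakened, 72.8% of stable, 91.2% of strengthened and 46.7% of all promoters.

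**Figure D5:**
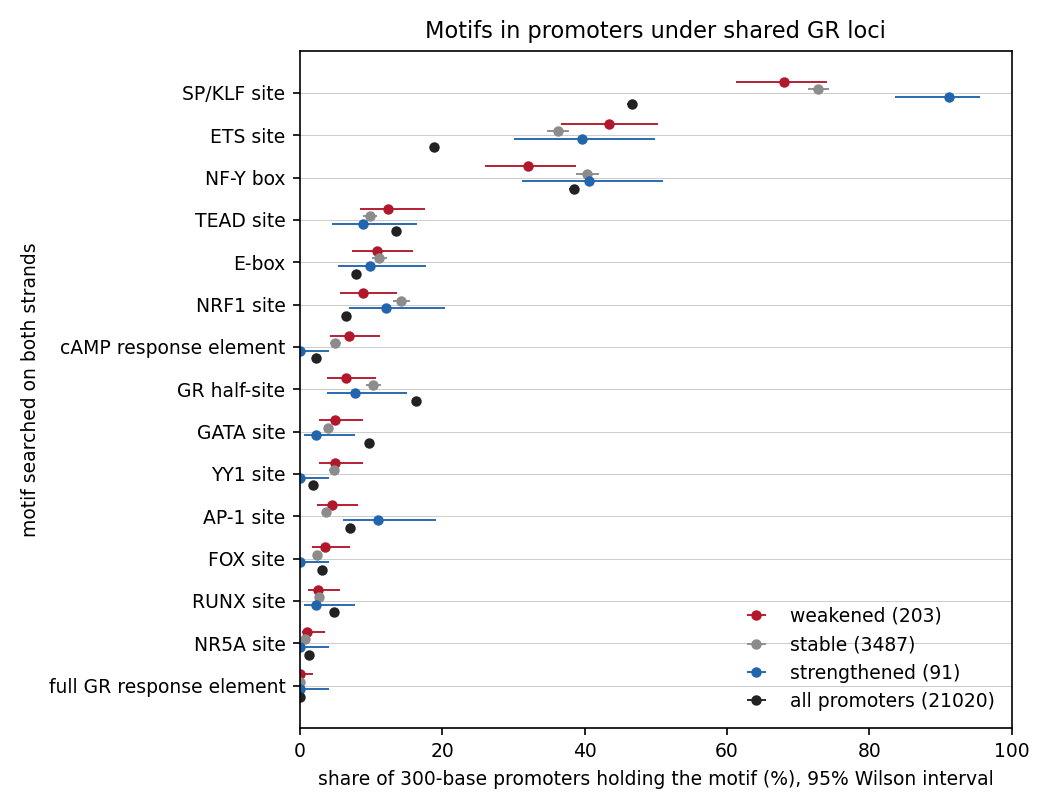
Share of 300-base promoters (%, points with 95% Wilson intervals) that hold each of 15 motifs on either strand, for promoters under weakened (203), stable (3487) and strengthened (91) loci and all promoters (21020). Weakened and stable promoters lie close together at most motifs, and strengthened promoters stand apart at the SP/KLF site (91.2%). Overlapping promoter windows are each counted.

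Some members lay at genes of mitochondrial import, protein breakdown and protein synthesis, the last no more often than over all genes. These 6 families were chosen after their values were seen and are a description. Of 4 shared loci at ends of genes grouped under import through the outer mitochondrial membrane, 3 were weakened, at Tomm20, Tomm34 and Tomm22. Tomm20 and Tomm22 encode subunits of the translocase of that membrane, which imports proteins. Tomm34 shares the name but does not encode a subunit. At Tomm20 fold enrichments were 4.67 and 3.10 at 6 h, against 7.24 and 9.12 at 0 h (M of −0.998). At Tomm34 they were 11.6 and 5.29 at 6 h, against 13.5 and 14.5 at 0 h (M of −0.74), and at Tomm22 6.65 and 7.38 at 6 h, against 13.7 and 11.2 at 0 h (M of −0.73). At each of the 3 promoters both 6 h values lay below both 0 h values, and at Tomm34 the first 6 h library was close to the 0 h libraries. Counting in the same way, by shared loci within 1 kb of an end of the gene's span, 2 of 21 of complex I genes (Ndufa7 and Ndufb7) were weakened, 1 of 10 of cytochrome c oxidase genes (Cox18), 2 of 14 of proteasome genes (Psma4 and Psmb3), 3 of 79 of ribosomal protein genes (Rpl21, Rps27l and Rps28) and 1 of 28 of translation initiation factor genes (Eif3g). Farther than 1 kb from the ends of their spans, and so not counted, lay the members over a transcript start of Rpl18, Cox5a (M of −0.70) and Cox7a2 (M of −0.58). Over all genes, 4.58% of the loci near a gene end were weakened. The ribosomal protein share (3.80%) and the initiation factor share (3.57%) were near this and slightly below it. The complex I, cytochrome c oxidase and proteasome shares rest on 1 or 2 loci each.

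No protein-coding gene had 3 or more members within 50 kb, and 29 had 2. Most genes near a member thus had 1.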

How the data were processed

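GR was measured by ChIP-seq in 4 libraries and H3K27ac in 1. Reads were aligned with Bowtie2 2.4.5 to mm10 and peaks called with MACS2, per the submitters' processing notes. Each library had its own list from the authors. Each deposited GR peak has a −log10 p-value with a score of 10 times its size, a fold enrichment (a ratio over the caller's background), a summit and a −log10 q-value, and the deposited H3K27ac list gives positions and other columns not used as a measure. The weakest −log10 p-value of each list was 9.10 or less, which corresponds to a limit of about 1e-09. The 6 h lists held 14748 and 10588 peaks and the 0 h lists 10119 and 9728. The sources used here do not give read depth, the control or the MACS2 version, and a deeper library can have a longer list. The labels do not say whether replicates came from separate mice.

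Chromosomes 1 to 19 and X were kept. Gene positions and promoter sequences came from RefSeq (GRCm38.p6, the coordinates of mm10). The gene table has no strand, and the promoter table covers 17274 of 21631 protein-coding genes and none on chromosome 18. Analyses used Python 3.11.15, pandas 2.3.3 and NumPy 2.4.6, and the code of the classification was tested on simulated data. The simulated loss was an M of −1, which only 8 of the 248 members reached. Recovery of members near the threshold was therefore not tested. The members and the 22 gene lists (384 genes, all found) were chosen with earlier results of these data known. Named loci were the 12 with the lowest M, the 5 strongest at 0 h, 3 on each side of the threshold, genes with 3 or more members and up to 4 genes per list. Other named loci, among them those of Gja1, Bmpr1b, Fshr, Igf1r, Mipep, Mif, Ppp2r2d, Atg5, Phf13 and the gene families, were chosen after their values were seen. The planned permutation test of peak width is not given, because width comes from the contrast that chose the members. Alternatives changed the scaling, the measure, the threshold, merging, the peak limit and the libraries. The other 4 of 9 samples were not analysed here.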

Additional observations from a re-analysis of the deposited data

How the results depend on the processing

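The number of weakened loci depended on the processing. It was 465 without scaling, 383 with the median of the whole list, 579 with the −log10 p-value, 842, 58 and 8 at thresholds of −0.3, −0.7 and −1, 65 with the stronger 50% of each list, and 391 to 547 with 1 library left out (547 without the second 6 h library), of which 160 to 201 overlapped the 248. Without scaling, the median M over shared loci was −0.14, and −0.11 with the whole-list median, so M is relative to that shift. The share near a gene end was 77.4% without scaling, 78.9% with −log10 p-values, 80.2% and 37.5% at −0.3 and −1, 77.8% within 2 kb, 64.9% within 250 bp and 69.8% to 80.5% with 1 library left out. The share in H3K27ac was 100% at −0.7 and at −1, and 97.4% to 99.3% with 1 library left out. FSH genes near members numbered 3 at −1, 3 with the stronger 50% of each list, and 4 to 10 with 1 library left out (10 without the second 6 h library). Within 50 kb, 17.7% of members had a locus only at 6 h and 13.3% one only at 0 h. These shares were 23.7% and 7.29% at stable loci, and 46.6% and 9.51% at strengthened loci. Genes near members numbered 256 by gene span and 279 by nearest gene. With the replicate number as a block, 100 members had both same-numbered differences at −0.5 or less. The labels do not say that the numbers pair the samples. No alternative reversed the sign of M at the 15 loci tried (the 12 lowest, Fam13a, Gja1 and Bmpr1b), and the other named loci were not recomputed singly. The 15 loci had been chosen for low M in the same libraries, which largely fixes the sign. The causes were not tested. The FSH and single-locus alternatives were chosen after seeing the data.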
